A study of Mus musculus with 12 samples.

Results

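The mitochondrial ribosomal protein genes encode the proteins of the mitoribosome, the ribosome that works inside mitochondria. They were chosen by name, as the protein-coding genes of the deposited count table whose symbol begins with Mrpl or Mrps followed by a digit, and this rule took 78 of 57490 genes. By their known place in the particle, 51 of them belong to the large subunit and 26 to the small subunit. The last one, Mrps36, carries a small subunit name but is known as a component of the oxoglutarate dehydrogenase complex. Kidney mRNA was sequenced from 12 male mice aged 13 weeks, in 3 groups of 4. The Ctrl mice were heterozygous db/m animals, which the labels also call wild-type, with a random blood glucose under 11.1 mmol/L. The Model mice were homozygous db/db animals of the stock BKS.Cg-Dock7m +/+ Leprdb/JNju, whose leptin receptor is defective, and had a random blood glucose of at least 16.7 mmol/L. The YHY mice were db/db animals that received the herbal water extract YHY at 6.24 g/mL by gavage, and Ctrl and Model received an equal volume of purified water. All mice arrived at 8 weeks of age, were acclimatised for 1 week and were dosed daily for 4 weeks, at 50 µL for each 10 g of weight. The tissue is named kidney in the sample labels and renal cortex in the series text, and the dose group that was sequenced is not given in the sources used here.

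Library totals ran from 24415658 to 33276634 counts, with a median of 32957201 in Ctrl, 26225909.5 in Model and 25748879.5 in YHY. Levels are given as CPM, the depth-scaled counts, after TMM scaling, a method that sets a factor per library from the bulk of the genes. In Ctrl, Slc34a1, the phosphate carrier of the proximal tubule, stood at 2039.7 ± 569.5 CPM, Umod of the thick ascending limb at 920.1 ± 275 CPM and Aqp2 of the collecting duct at 649.6 ± 353 CPM (SD, n = 4 mice). Cyp11b1, which defines the adrenal cortex, had a mean of 0.0240 CPM in Ctrl and 0 in Model and YHY, and the fat cell marker Plin1 averaged 0 CPM in the Ctrl mice, 0.0238 in the Model mice and 0.0387 in the YHY mice. Some markers of these tissues were present: Star, of the adrenal cortex, had a mean of 1.68 CPM in Ctrl and 4.20 in Model, and Fabp4, of fat cells and also known from endothelium, of 53.4 and 53.9.

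Markers of cell types were tested with all other genes. In Model, 8 of 41 markers tested were above Ctrl and 7 below, shares close to the 19.6% and 18.5% of all genes, against 4 and 12 with scaling by library size alone and 12 and 5 with scaling by the total of the nuclear counts. Of 7 proximal tubule markers, Lrp2 (log2 fold change -1.68), Cubn (-0.90) and Aqp1 (-0.94) were lower, and Slc34a1 (0.06), Slc5a2 (0.42), Slc22a6 (-0.73) and Slc13a3 (-0.48) did not pass the test. The other 4 lower markers were Umod (-2.86) and, of collecting duct principal cells, Aqp2 (-1.18), Aqp3 (-1.72) and Hsd11b2 (-1.54). Slc12a1, the other marker of the thick ascending limb, did not pass (-0.05, adjusted P = 0.910). It was at -0.49 by library size alone and 0.27 by the nuclear total alone, again without passing. By the nuclear total alone Aqp1 (-0.62, adjusted P = 0.133) and Aqp2 (-0.90, 0.117) did not pass. The 8 higher markers were Slc12a3 of the distal convoluted tubule (1.33), Nphs1 (1.86) and Synpo (0.53) of podocytes, Pdgfrb of the mesangium (0.52), Cd68 of macrophages (1.05), Star (1.32), and Apoa1 (1.35) and Ttr (2.33) of hepatocytes. By library size alone Synpo (0.11, adjusted P = 0.732), Pdgfrb (0.06, 0.802), Cd68 (0.62, 0.0964) and Apoa1 (0.89, 0.156) did not pass. Between YHY and Model, Myh11 of smooth muscle was higher in YHY (0.56), but not called by library size alone (0.57, adjusted P = 0.121). Pvalb of the distal convoluted tubule (-1.59) and Atp6v1g3 of intercalated cells (-1.13) were lower in YHY. The other marker of the distal convoluted tubule, Slc12a3 (-0.05), and the other intercalated cell markers, Slc4a1 (-0.31) and Slc26a4 (-0.26), did not pass. Of the 41 markers 1 was thus higher and 2 lower, beside 5.63% and 7.62% of all genes. The summed level of the proximal tubule markers, of which Slc34a1 was the most abundant, was 5159 ± 739 CPM in the Ctrl mice, 3789 ± 372 in the Model mice and 2838 ± 1060.1 in the YHY mice (SD, n = 4). It ran from 4466 to 6186 CPM in Ctrl, from 3259 to 4113 in Model and from 1740.2 to 4103 in YHY, so with TMM every Model mouse lay below every Ctrl mouse. Scaled to the nuclear counts alone, an alternative added after the data were seen, the groups overlapped, with Model 3 (7722 CPM) above Ctrl 1 (7444) and Ctrl 4 (7369). The part of these markers in the mitoribosomal values was not tested, and in whole tissue fewer cells of a type and less RNA per cell cannot be told apart.

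The mitoribosome translates the few proteins that the mitochondrial genome encodes, all of them core subunits of the respiratory chain and ATP synthase. Its RNA comes from the mitochondrial genome, whereas all its proteins are encoded in the nucleus, made in the cytosol and imported. Some of these proteins descend from bacterial ribosomal proteins and others were added in mitochondria. Mrps18a and Mrps18b, although related to bacterial S18, are counted here with those added in mitochondria, because Mrps18c holds the place of S18. The kidney tubule is rich in mitochondria, which supply the ATP for salt and solute transport.

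The groups differed strongly in how much of each library came from the mitochondrial genome, whose counts are part of each library total. Its transcripts took 18.4 to 22.7% of all counts in the Ctrl mice, 41.2 to 58.9% in the Model mice and 53.8 to 64.6% in the YHY mice. All Model mice lay above all Ctrl mice (two-sided exact permutation P = 0.0286, the smallest that 4 mice against 4 can give), and Model and YHY overlapped (P = 0.457 by the same exact test). Within its group, Model 1 was low, Ctrl 2 was high and YHY 2 was high. The 78 mitoribosomal genes together took 0.442, 0.453, 0.448 and 0.456% of all counts in Ctrl, 0.362, 0.220, 0.248 and 0.255% in Model and 0.205, 0.144, 0.236 and 0.222% in YHY. Every Model mouse lay below every Ctrl mouse on this measure, and YHY lay lower still, with YHY 3 and YHY 4 inside the Model range. Of the nuclear counts alone, however, the same genes took 0.559 ± 0.0190% in the Ctrl mice, 0.563 ± 0.0359% in the Model mice and 0.464 ± 0.0497% in the YHY mice (SD, n = 4). On this measure Ctrl and Model overlapped, and the 4 YHY mice lay below all Ctrl and all Model mice. The widest 95% Wilson interval of any mouse spanned 0.0396 percentage points for the mitochondrial share and 0.00483 for the share of the mitoribosomal genes, and such intervals, like the floors set for 0 counts, cover counting error only and not the copying of reads by PCR.

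**Figure D1:**
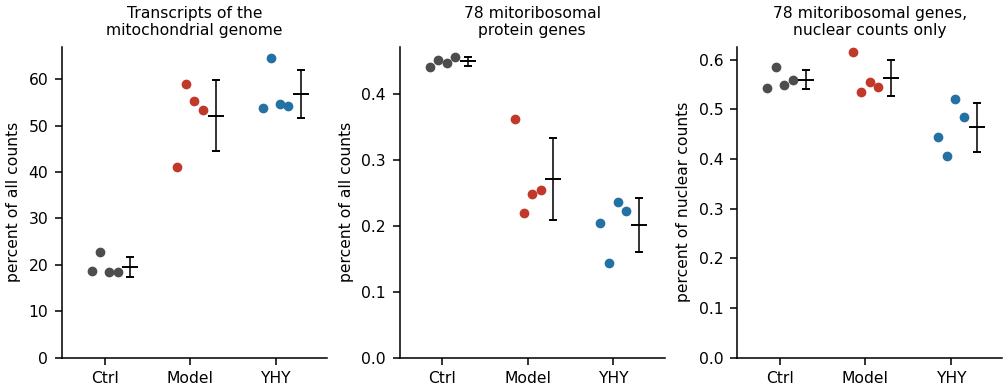
Share of counts in each mouse (dots) with the mean ± SD of 4 mice (bars), for transcripts of the mitochondrial genome and for the 78 mitoribosomal genes, as percent of all counts or of nuclear counts only. The mitoribosomal share was lower in Model than in Ctrl among all counts (0.271% against 0.450%) and not among nuclear counts (0.563% against 0.559%).

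Among the members, levels per length differed widely. Over all 12 mice, the level in CPM per kilobase of gene length had a median of 12.3 over the 77 members with enough counts for a test and ran from 1.64 for Mrps18b to 154 for Mrps21, a ratio of 93.7. Mrps21, the small subunit relative of bacterial S21, was followed by Mrpl12 at 105 and Mrpl54, a large subunit protein, at 77.9 CPM per kilobase. In Ctrl these stood at 174 ± 44.0, 140.2 ± 12.1 and 76.7 ± 15.6 CPM per kilobase (SD, n = 4 mice), so the spreads of Mrps21 and Mrpl12 overlapped and Mrpl54 lay below both. The order changed with the group: in Ctrl, Mrpl34 at 83.3 ± 7.24 stood above Mrpl54, and in YHY the order was Mrps21 at 106 ± 19.4, Mrps6 at 79.8 ± 44.3, Mrpl54 at 60.2 ± 10.5 and Mrpl12 at 50.7 ± 10.2. Mrps6 was picked out here after its values had been seen. At the low end, Mrpl3, the relative of the bacterial L3 protein near the catalytic centre, stood at 2.5 CPM per kilobase. Mrpl33 at 2.59 and Mrpl19 at 2.63 stood close to it. This order rests on the deposited gene length, which is 6661 bases for Mrpl3. In CPM not divided by length, Mrpl3 had a mean of 21.0 in Ctrl, above Mrpl19 at 16.3 and Mrpl43 at 15.8. Mrpl53, a large subunit protein, was listed at 0 counts in all 12 mice, where a floor of 3 counts would be 0.0902 CPM in the deepest library and 0.123 CPM in the shallowest, without TMM factors. It was therefore the only member that was not tested.

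Several members share their place in the genome with another gene, and the setting used for read strand is not given in the sources used here. Of the 78 members, 41 overlap another gene, 12 of them a gene on the same strand and 4 a protein-coding gene on the same strand. Mrpl53 (chr6:83086021-83086920, plus strand, GRCm39) lies with all of its 900 bases inside the protein-coding Gm42688, which had a mean of 0.139 CPM. Mrps34 shares 1003 bases with Nme3, which was listed at 0 counts, and lies within Mapk8ip3 of the other strand. Mrps24 shares 2264 bases with Urgcp, and Mrps6 lies in part within Slc5a3 and Gm49711. How reads in shared stretches were divided cannot be told from the counts, so the values of these members are uncertain. The table also lists 6 genes named as pseudogenes of members, and those of Mrpl23, Mrpl27, Mrpl48 and Mrps36 could share reads with them.

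The starts of the genes were searched for motifs known from genes of mitochondrial proteins, to show what the members have in common there. RefSeq windows on GRCm38.p6, from 250 bases before to 50 bases after the start, were matched for 69 of the 78 members, and Mrpl13, Mrpl15, Mrpl19, Mrpl38, Mrpl4, Mrpl54, Mrps28, Mrps34 and Mrps35 had no window. The motifs were GCGCANGCG (NRF1), CCGGAAG (ETS), AAGATGGCG (YY1), TCAAGGTCA (ERR) and CACGTG (E-box), each read on both strands, and no member held matches of 2 motifs that overlapped. The ETS letters were in 36.2% of the members' windows and in 9.12% of all 27025 windows. The NRF1 letters were in 23.2% against 6.47%, and the YY1 letters in 11.6% against 1.49%. The E-box letters were in 7.25% against 7.24% and the ERR letters in 0% against 0.407%. Over the 11982 windows of genes tested here, the shares were 16.5% for ETS, 12.3% for NRF1, 2.85% for YY1, 9.7% for E-box and 0.275% for ERR. Stretches are shown for the members, among the 8 largest falls and the 2 rises in Model, that held a match before their start, written 5′ to 3′ on the gene's strand with the matched letters in capitals. They are Mrpl44 (chr1:79775953-79776017, plus strand, NRF1 letters), Mrpl34 (chr8:71464859-71464925, plus strand, ETS letters), Mrps18b (chr17:35916626-35916690, minus strand, NRF1 letters of the other strand) and Mrps11 (chr7:78782993-78783061, plus strand, YY1 letters of the other strand).
Mrpl44: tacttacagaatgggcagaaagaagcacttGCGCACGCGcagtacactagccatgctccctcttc
Mrpl34: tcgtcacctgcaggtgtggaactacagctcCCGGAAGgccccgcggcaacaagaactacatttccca
Mrps18b: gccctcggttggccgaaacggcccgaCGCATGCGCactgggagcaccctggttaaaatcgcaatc
Mrps11: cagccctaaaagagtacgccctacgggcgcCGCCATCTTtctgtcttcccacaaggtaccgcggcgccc
The median log2 fold change in Model was -0.43 for the 24 tested members with the ETS letters and -0.40 for the 44 without, -0.41 for the 16 with the NRF1 letters and -0.40 for the 52 without, -0.30 for the 8 with the YY1 letters and -0.41 for the 60 without, and -0.35 for the 5 with the E-box letters and -0.41 for the 63 without. These differences were not tested. A match is only a run of letters in this window.

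The first comparison, Model against Ctrl, asked how the diabetic kidney differed from the non-diabetic kidney. Of the 77 members tested, 35 were lower in Model, where 18.5% of all 17431 genes tested were lower, and 2 were higher, where 19.6% of all genes were higher (edgeR quasi-likelihood test, two-sided, Benjamini-Hochberg adjusted P under 0.05 over all genes tested). The lower members were 45.5% of those tested. All 4 Model mice lay below all 4 Ctrl mice in 34 members, where 20.3% of all genes showed this. The median log2 fold change was -0.40 over the members, a fold of 0.757, and 0.04 over all genes, and the estimate lay below 0 in 63 members. This size and the count depended on scaling: by library size alone 58 members were lower and 0 higher, with a median of -0.81, whereas by the nuclear total alone, an alternative added after the data were seen, 18 were lower and 11 higher, with a median of -0.07. By library size alone 32.5% of all genes were lower and 8.87% higher, and by the nuclear total alone 9.24% and 31.8%. Over all genes the same settings moved the median from 0.04 to -0.39 and to 0.36, and upper-quartile scaling moved it to 0.14. The members' median less that of all genes stayed between -0.50 and -0.37 under all 23 settings tried, and was -0.44 with TMM, -0.42 by library size and -0.43 by the nuclear total. A change of scaling shifts the log2 fold changes of all genes by nearly the same amount. The agreement of this difference between scalings was therefore fixed in advance and is no check of it. Of all genes called, 48.5% were lower with TMM, 78.6% by library size alone and 22.5% by the nuclear total alone, and of members called 94.6%, 100% and 62.1%. Of the 35 members lower with TMM, 18 remained lower by the nuclear total and 35 by library size. With mitochondrial transcripts left out before TMM, all 35 remained lower and 2 were higher, beside 19.3% and 19.9% of all genes. The members' median was then -0.41. Without Ctrl 2, 5 members were higher in Model, beside 17.7% of all genes.

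**Figure D2:**
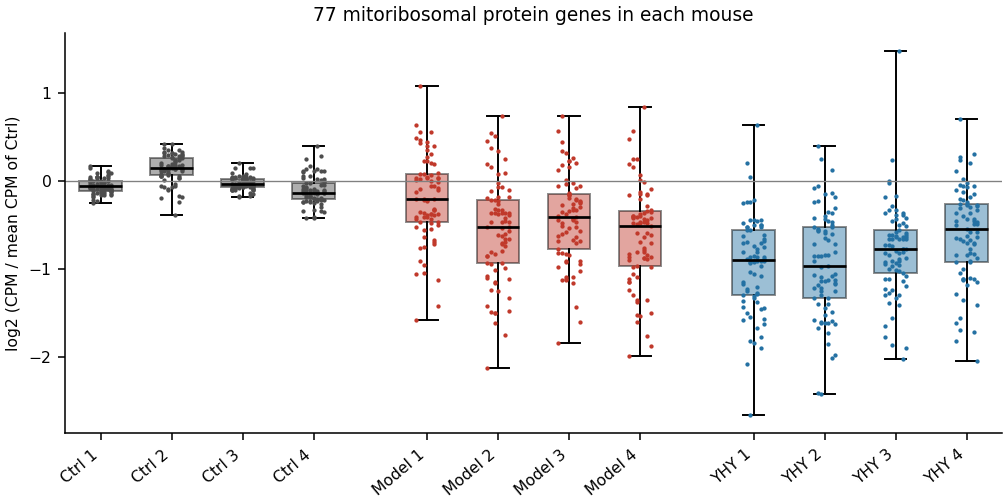
Level of each of the 77 tested members (dots) in each mouse, as log2 of CPM over the mean CPM of Ctrl, with boxes at the quartiles, whiskers at the lowest and highest member and black lines at the median. With TMM scaling the members' median lay between -0.52 and -0.21 in the Model mice and between -0.97 and -0.55 in the YHY mice, and by the nuclear total alone the Model against Ctrl median was close to 0 (-0.07).

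The mice were not alike in these genes. Model 1 had the highest level of its group in 56 of 77 members and Model 4 the lowest in 42. Ctrl 2 was the highest Ctrl mouse in 58 members and Ctrl 4 the lowest in 44, while YHY 4 was the highest YHY mouse in 49 and YHY 2 the lowest in 34. Without Model 1, 45 members were lower in Model than in Ctrl, beside 20.9% of all genes, and the median was -0.53.

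Of the 10 small subunit proteins added in mitochondria, 8 fell in Model, where 18.5% of all genes did. By library size alone 8 fell and by the nuclear total alone 3, and differences between the classes of members were not tested. The class had a median log2 fold change of -0.65 that stayed below 0 by the nuclear total alone (-0.34). Mrps34, which is needed for a stable small subunit, had the largest fall of all members (ENSMUSG00000038880, chr17:25114090-25116476, GRCm39). It stood at 18.0, 19.2, 17.2 and 19.2 CPM in the Ctrl mice and at 8.85, 4.24, 5.16 and 4.66 CPM in the Model mice. All Model mice were below all Ctrl mice, and Model 1 was the highest of them (log2 fold change -1.68, SE 0.21, adjusted P = 3.03e-05, n = 4 mice per group). Mrps33, another small subunit protein of this class, stood at 39.0, 44.6, 34.4 and 28.8 CPM in Ctrl and at 26.7, 14.6, 18.1 and 10.0 CPM in Model. The groups did not overlap, although Ctrl 4 and Model 1 came close (log2 fold change -1.08, SE 0.23, adjusted P = 0.00198). The other members of this class that fell were Mrps22 (-0.82), Mrps31 (-0.67), Mrps25 (-0.64), Mrps23 (-0.45) and Mrps26 (-0.40), besides Mrps18b. Mrps27 (-0.16) and Mrps35 (0.07) did not pass the test.

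Among the 16 small subunit proteins with a bacterial relative, 5 fell and 1 rose (18.5% and 19.6% of all genes), against 3 and 3 by the nuclear total alone and 11 falls by library size alone. The median was -0.36 with TMM and -0.03 by the nuclear total. Mrps2, the relative of bacterial S2, stood at 43.9, 44.6, 42.3 and 39.7 CPM in the Ctrl mice and at 20.7, 15.1, 19.7 and 14.8 CPM in the Model mice. The Model mice were all under the lowest Ctrl mouse (log2 fold change -1.27, SE 0.18, adjusted P = 9.50e-05). Mrps12, the relative of bacterial S12 in the decoding centre, stood at 20.3, 21.3, 21.2 and 26.6 CPM in Ctrl and 12.0, 8.0, 12.7 and 10.8 CPM in Model, again without overlap and with Ctrl 4 above the other Ctrl mice (log2 fold change -1.04, SE 0.21, adjusted P = 0.00133). The other members of this class that fell were Mrps14 (-1.02), Mrps9 (-0.69) and Mrps17 (-0.43). The remaining 10 did not pass the test and had estimates from -0.45 for Mrps16 to 0.62 for Mrps6.

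The 3 Mrps18 paralogs, all related to bacterial S18, had estimates below 0, and 2 of them passed the test. Mrps18a, the paralog found in the large subunit, stood at 33.9, 40.6, 35.9 and 36.9 CPM in Ctrl and at 16.9, 17.0, 19.2 and 20.3 CPM in Model. Every Model mouse was below every Ctrl mouse (log2 fold change -1.0, SE 0.16, adjusted P = 0.000189). Mrps18b, a small subunit protein and the member with the lowest level per length among those tested, stood at 5.74, 4.55, 4.87 and 5.60 CPM in Ctrl and 1.74, 2.71, 2.65 and 2.39 CPM in Model. Model 1 was the lowest mouse and the groups did not overlap (log2 fold change -1.13, SE 0.32, adjusted P = 0.0103), but by the nuclear total alone the change was -0.81 with an adjusted P of 0.0651. Mrps18c, which holds the place of bacterial S18 in the small subunit, stood at 8.88, 12.1, 9.69 and 9.08 CPM in Ctrl and 9.33, 7.71, 7.16 and 7.52 CPM in Model. Its groups overlapped through Model 1 (log2 fold change -0.32, SE 0.19, adjusted P = 0.194), it passed the test by library size alone (-0.73, adjusted P = 0.0197), and by the nuclear total its estimate was 0.01. The differences between the paralogs' changes were not tested.

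In the large subunit, 6 of the 20 tested proteins added in mitochondria fell (18.5% of all genes), against 6 falls and 4 rises by the nuclear total alone and 14 falls by library size alone. The median log2 fold change of -0.30 turned to 0.03 by the nuclear total, beside 0.36 over all genes. Mrpl44, a protein with a fold like that of RNase III enzymes, stood at 30, 28.5, 35.7 and 35.0 CPM in the Ctrl mice and at 12.1, 11.6, 10.6 and 11.4 CPM in the Model mice (ENSMUSG00000026248, chr1:79753735-79759162, GRCm39). The Model mice lay close together and far below every Ctrl mouse (log2 fold change -1.50, SE 0.15, adjusted P = 5.53e-06). Mrpl50 stood at 87.3, 86.6, 86.0 and 71.9 CPM in Ctrl and at 51.5, 24.7, 30.7 and 24.5 CPM in Model. Model 1 was the highest Model mouse and still below Ctrl 4, the lowest Ctrl mouse (log2 fold change -1.33, SE 0.20, adjusted P = 0.000145). Mrpl39 (-0.77) and Mrpl40 (-0.81) also fell, besides Mrpl46 and Mrps18a. Mrpl45, which ties the ribosome to the inner membrane, stood at 49.5 ± 2.49 CPM in Ctrl and 46.5 ± 3.33 in Model, and Mrpl58, a peptidyl-tRNA hydrolase built into the ribosome, at 50.6 ± 7.03 and 52.7 ± 6.59 (SD, n = 4 mice). Both overlapped between the groups and neither passed the test (log2 fold changes -0.09, SE 0.13, and 0.06, SE 0.14). Their direction was not settled: Mrpl45 was at -0.51 by library size alone (adjusted P = 0.0225) and 0.24 by the nuclear total (0.127), and Mrpl58 at -0.35 (0.175) and 0.39 (0.0251).

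Among the 30 large subunit proteins with a bacterial relative, 15 fell and 1 rose (18.5% and 19.6% of all genes), against 5 and 4 by the nuclear total alone and 24 falls by library size alone. The median was -0.43, and -0.11 by the nuclear total. Mrpl34, the relative of bacterial L34, stood at 49.6, 47.6, 48.1 and 57.1 CPM in Ctrl and at 26.1, 16.6, 23.2 and 16.6 CPM in Model. All Model mice were below all Ctrl mice (log2 fold change -1.29, SE 0.25, adjusted P = 0.000784). The other 14 that fell had estimates from -0.94 for Mrpl35 to -0.41 for Mrpl28. Mrpl12, the stalk protein that recruits translation factors and is also known to bind the mitochondrial RNA polymerase, stood at 208, 239, 217 and 195 CPM in Ctrl and at 183, 184, 196 and 197 CPM in Model. Its groups overlapped (log2 fold change -0.18, SE 0.15, adjusted P = 0.391), it passed the test by library size alone (-0.60, adjusted P = 0.0209) and its estimate was 0.16 by the nuclear total (0.406). Mrps36, the dehydrogenase component, stood at 54.7, 73.5, 58.3 and 53.1 CPM in Ctrl and 40.7, 33.7, 33.7 and 23.2 CPM in Model and fell without overlap (log2 fold change -0.87, SE 0.19, adjusted P = 0.00218).

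Only Mrpl23 and Mrps11 rose with TMM scaling. Mrpl23, which lines the exit of the tunnel for the new protein, stood at 31.9, 36.2, 34.0 and 29.4 CPM in the Ctrl mice and at 69.5, 47.9, 54.8 and 48.6 CPM in the Model mice. Every Model mouse was above every Ctrl mouse and Model 1 was the highest (log2 fold change 0.75, SE 0.17, adjusted P = 0.00241). Its pseudogene Mrpl23-ps1 had a mean of 1.53 CPM in Ctrl and 3.03 in Model (log2 fold change 0.99, unadjusted P = 0.0392, adjusted P = 0.0879). Mrps11, the relative of bacterial S11 on the platform of the small subunit, stood at 26.0, 30.2, 25.6 and 28.1 CPM in Ctrl and at 42.8, 37.6, 40.8 and 38.4 CPM in Model, without overlap (log2 fold change 0.54, SE 0.13, adjusted P = 0.00383). By library size alone neither passed the test, at 0.34 for Mrpl23 (adjusted P = 0.183) and 0.12 for Mrps11 (0.658).

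Mrps11 and Mrpl46 are neighbours that moved in opposite directions in Model. Mrps11 (chr7:78432867-78442737, plus strand, GRCm39) and Mrpl46 (chr7:78424984-78433279, minus strand) overlap head to head by 413 bases. Mrpl46, a large subunit protein, stood at 32.8, 35.2, 33.2 and 38.6 CPM in Ctrl and at 20.6, 14.8, 16.0 and 14.3 CPM in Model. All Model mice were below all Ctrl mice for Mrpl46 (log2 fold change -1.09, SE 0.15, adjusted P = 7.31e-05), whereas for Mrps11 all were above. Reads in the shared stretch cannot be assigned without knowing the strand setting.

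**Figure D3:**
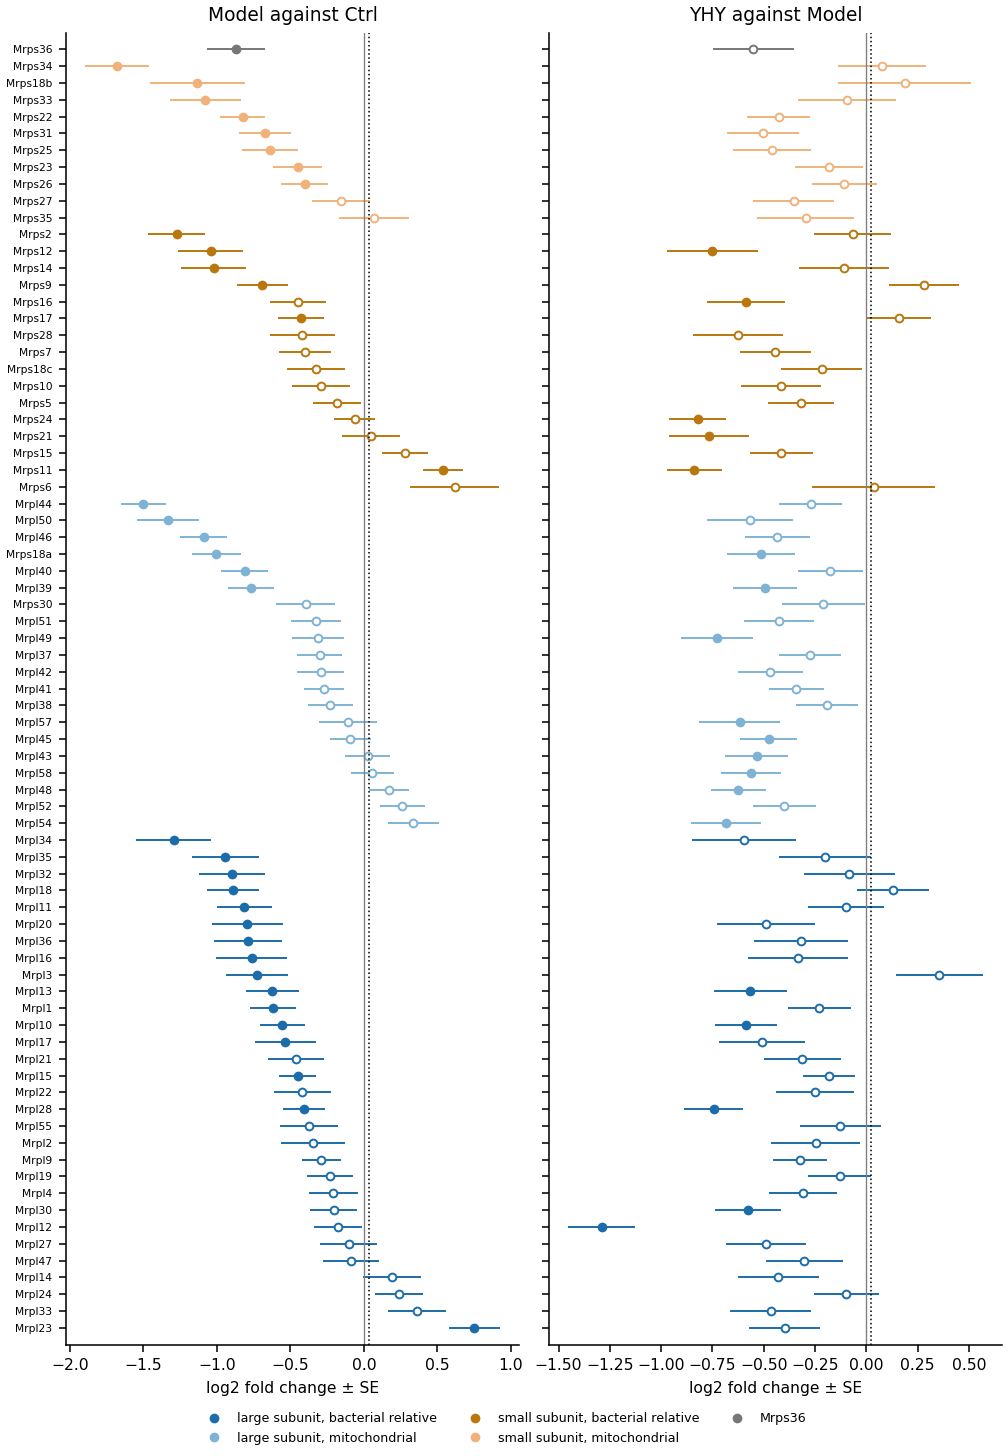
Log2 fold change of each tested member (dots, with bars of ± SE) for Model against Ctrl and for YHY against Model, coloured by subunit and origin, filled where the adjusted P was under 0.05, with the median of all genes as a dotted line. With TMM scaling 35 members fell and 2 rose in Model against Ctrl (18 and 11 by the nuclear total alone, 58 and 0 by library size alone), and 19 fell and 0 rose in YHY against Model (9 and 0, and 5 and 0).

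Within each mouse the balance of both subunits can be read without scaling between libraries. The summed level per length of the large subunit genes over that of the small subunit genes was 2.2, 2.09, 2.16 and 2.17 in the Ctrl mice, 1.98, 1.81, 1.84 and 1.80 in the Model mice and 1.76, 1.96, 1.55 and 2.00 in the YHY mice. All Model and all YHY mice lay below all Ctrl mice, and Model and YHY overlapped, with YHY 3 the lowest. These sums contain Mrps6, whose count is uncertain because it lies in part within Slc5a3, and which was left out in a second reading chosen after the values had been seen. Without it the ratio was 2.4, 2.21, 2.36 and 2.47 in Ctrl, 2.25, 2.15, 2.07 and 2.2 in Model and 2.26, 2.22, 2.21 and 2.31 in YHY. The means were then 2.36 in Ctrl, 2.17 in Model and 2.25 in YHY. Of the Ctrl mice 3 still lay above all Model and YHY mice, while Ctrl 2 lay within their range. No test was made of either ratio.

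The second comparison, YHY against Model, asked what the extract changed in db/db kidney. Of the 77 members, 19 were lower in YHY, where 7.62% of all genes tested were lower, and 0 were higher, where 5.63% were higher (edgeR). At an unadjusted P under 0.05, 40 were lower and 0 higher (2559 and 2430 of all 17431 genes), and DESeq2 called 23 lower and 0 higher (9.68% and 8.23% of all genes). The lower members were 24.7% of those tested, the median log2 fold change was -0.40 against 0.02 over all genes, and the estimate lay below 0 in 70 members. By the nuclear total alone, 9 members were lower and 0 higher, with a median of -0.26 beside 0.16 over all genes, and by library size alone 5 were lower and 0 higher, with a median of -0.40 beside 0.03. Of all genes 4.77% were lower and 8.65% higher by the nuclear total, and 3.94% and 2.82% by library size. With mitochondrial transcripts left out before TMM, 17 members were lower and 0 higher, beside 7.45% and 6.39% of all genes. The members' median was then -0.38. The median less that of all genes ran from -0.50 to -0.29 over the 23 settings, and its agreement between scalings was again fixed in advance. Of all genes called, 57.5% were lower with TMM and 35.5% by the nuclear total alone. The count of lower members moved with single mice, as did the share of all genes: it was 8 without Model 3 (4.02% of all genes lower), 9 without Model 1 (5.16%), 10 without YHY 1 (5.6%) and 30 without YHY 4 (9.46%), and 8 in a fit of only these 8 mice (4.2%). With a mouse left out the median ran from -0.49 without YHY 4 to -0.26 without Model 1. Model against Ctrl and YHY against Model share the 4 Model mice, so the values of both are given side by side and one is no check of the other.

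Mrpl12 had the largest fall under YHY of all members. It stood at 183, 184, 196 and 197 CPM in the Model mice and at 60.1, 70.3, 85.4 and 95 CPM in the YHY mice (ENSMUSG00000039640, chr11:120375439-120379891, GRCm39). The highest YHY mouse was far below the lowest Model mouse (log2 fold change -1.29, SE 0.16, adjusted P = 0.000322, a fold of 0.409). Mrpl28, the relative of bacterial L28, stood at 50.6, 49.5, 55.4 and 50.5 CPM in Model and 29.6, 31.3, 25.7 and 36.3 CPM in YHY, and no mouse overlapped (log2 fold change -0.74, SE 0.14, adjusted P = 0.00373). The other large subunit proteins with a bacterial relative that fell were Mrpl10, which anchors Mrpl12 in the stalk (-0.59), Mrpl30 (-0.58) and Mrpl13 (-0.57), so that 5 of 30 fell in this class (16.7%, beside 7.62% of all genes), and 2 each by the nuclear total alone (4.77% of all genes) and by library size alone (3.94%).

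Of the 20 tested large subunit proteins added in mitochondria, 9 were lower in YHY than in Model, where 7.62% of all genes were lower, with a median of -0.47 that was -0.33 by the nuclear total alone. Other scaling took calls away: edgeR called 4 lower by the nuclear total alone and 0 by library size alone, beside 15 lower and 0 higher at an unadjusted P under 0.05 with TMM and 10 lower by DESeq2. Mrpl54 stood at 93.3, 70.8, 80.0 and 75.2 CPM in Model and 44.0, 42.7, 50.4 and 61.6 CPM in YHY, without overlap (log2 fold change -0.68, SE 0.17, adjusted P = 0.0152). Mrpl58 stood at 62.5, 48.2, 49.7 and 50.4 CPM in Model and at 37.0, 31.9, 34.4 and 39.3 CPM in YHY, without overlap and with Model 1 far above the rest (log2 fold change -0.56, SE 0.14, adjusted P = 0.0171, and adjusted P = 0.0507 without Model 1, 0.0951 by library size alone and 0.0515 in a fit of only these groups). Mrpl45 stood at 50.7, 43.3, 47.5 and 44.4 CPM in Model and 28.3, 37.0, 30.1 and 38.4 CPM in YHY. All YHY mice were below all Model mice (log2 fold change -0.48, SE 0.13, adjusted P = 0.0276). Its call was lost without Model 1, Model 3, YHY 1 or YHY 3, with an adjusted P from 0.0524 to 0.0773. It was also lost by library size alone (0.0834), by the nuclear total alone (0.0675), without a filter (0.0572), in a fit of only these groups (0.0925) and with a block for the replicate number (0.0507). Mrps18a stood at 16.9, 17.0, 19.2 and 20.3 CPM in Model and 11.9, 9.39, 16.1 and 13.9 CPM in YHY, with no overlap (log2 fold change -0.51, SE 0.16, adjusted P = 0.0450), and its call was lost when any mouse but YHY 3 or YHY 4 was left out (adjusted P from 0.0526 to 0.114). All 4 other scalings, the fit without a filter, the fit of only these groups, the 9 mice and the replicate block lost it as well (0.0529 to 0.200). The others that fell were Mrpl49 (-0.73), Mrpl48 (-0.62), Mrpl57 (-0.62), Mrpl43 (-0.54) and Mrpl39 (-0.50).

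In the small subunit, 5 of 16 proteins with a bacterial relative were lower in YHY (7.62% of all genes), and 3 each by the nuclear total alone (4.77%) and by library size alone (3.94%). Mrps11 stood at 42.8, 37.6, 40.8 and 38.4 CPM in Model and at 23.1, 19.1, 21.4 and 25.6 CPM in YHY. Here every YHY mouse was below every Model mouse, and YHY 4 reached the lowest Ctrl mouse (log2 fold change -0.84, SE 0.13, adjusted P = 0.00122). Mrps24, the relative of bacterial S3, stood at 63.6, 59.5, 61.4 and 60.1 CPM in Model and 34.5, 28.6, 40.4 and 34.8 CPM in YHY, and Mrps21 at 151, 127, 144 and 112 CPM in Model and 62.3, 72.3, 83.0 and 95.7 CPM in YHY. Neither overlapped between the groups (log2 fold change -0.82, SE 0.13, adjusted P = 0.00171 for Mrps24, and -0.77, SE 0.19, adjusted P = 0.0156 for Mrps21), and the call of Mrps21 was lost without Model 3 (adjusted P = 0.0522). Mrps12 stood at 12.0, 8.0, 12.7 and 10.8 CPM in Model and 5.30, 4.20, 8.59 and 7.63 CPM in YHY, and YHY 3 reached into the Model range (log2 fold change -0.75, SE 0.22, adjusted P = 0.0331). Its call was lost without Model 1, Model 3, Model 4, YHY 1 or YHY 2, with an adjusted P from 0.0618 to 0.105, and also by library size alone (0.121), by the nuclear total alone (0.0970), in a fit of only these groups (0.103) and with the 9 mice (0.0790). The last of the 5 was Mrps16 (-0.59).

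The small subunit proteins added in mitochondria, of which 8 of 10 fell in Model against Ctrl, gave 0 lower and 0 higher in YHY against Model by edgeR, 3 lower and 0 higher at an unadjusted P under 0.05, and 1 lower and 0 higher by DESeq2. Among all genes 7.62% were lower and the difference between the comparisons was not tested. Their median was -0.24 with TMM and -0.10 by the nuclear total alone. Mrps34, for one, stood at 6.18, 6.19, 5.88 and 6.0 CPM in the YHY mice, within the range of the Model mice (log2 fold change 0.07, SE 0.21, adjusted P = 0.862). Mrps18b stood at 2.02, 4.42, 2.94 and 1.47 CPM in YHY, with YHY 2 the highest (log2 fold change 0.19, SE 0.32, adjusted P = 0.757), and its estimate was -0.14 without YHY 2. Mrps18c stood at 6.79, 5.52, 6.29 and 8.67 CPM in YHY and overlapped with Model (log2 fold change -0.22, SE 0.19, adjusted P = 0.497). Mrps36 stood at 32.8 ± 7.23 CPM in Model and 22.4 ± 4.97 CPM in YHY with overlap, and did not pass the test with all mice (log2 fold change -0.55, SE 0.19, adjusted P = 0.0698), but did without Model 4 (adjusted P = 0.0328), without YHY 4 (0.0338), by DESeq2 (0.0484) and without a filter (0.0440). Members called lower in both comparisons were Mrpl10, Mrpl13, Mrpl28, Mrpl39, Mrps12 and Mrps18a. The share of all genes lower in both is not given here. The calls of Mrps12 and Mrps18a in YHY against Model were lost with single mice left out and under other settings, as given above. Those of Mrpl10, Mrpl13 and Mrpl39 were not followed with single mice left out. Their edgeR adjusted P values in YHY against Model were 0.0170, 0.043 and 0.0406, and for Mrpl39 the mice overlapped. The call of Mrpl39 was lost by library size alone, where 0 of its class were lower.

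**Figure D4:**
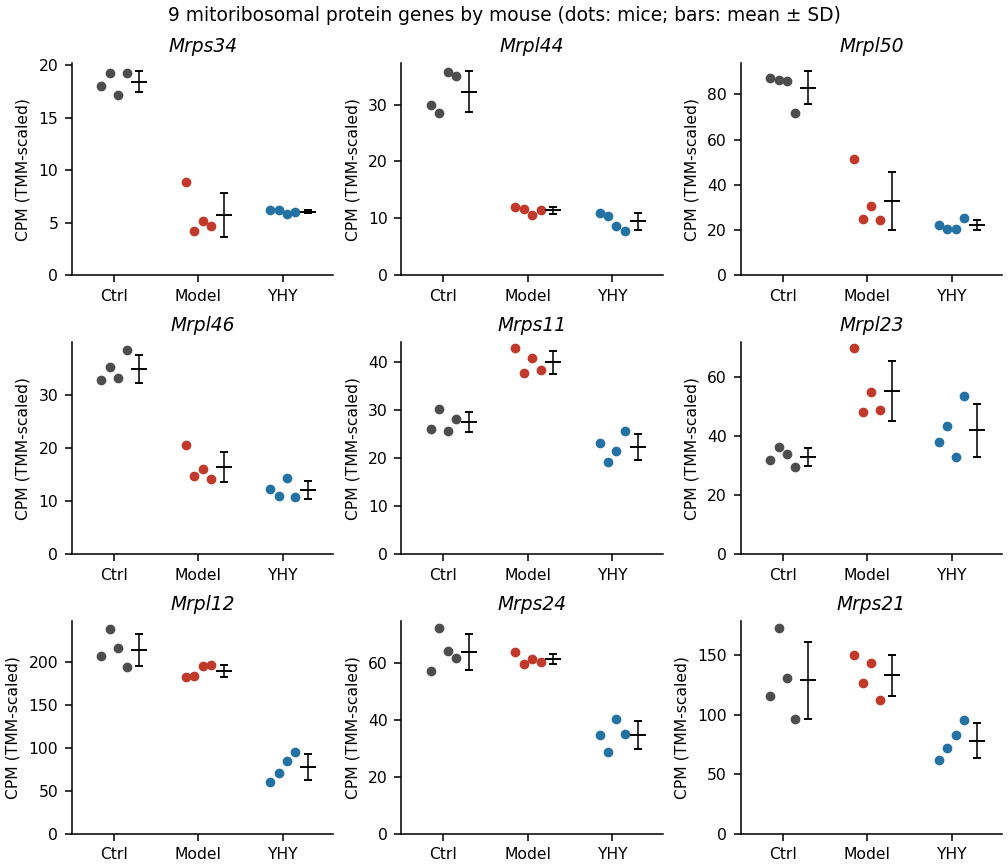
CPM of 9 members in each mouse (dots) by group, with the mean ± SD of 4 mice (bars). Mrps34, Mrpl44, Mrpl50 and Mrpl46 fell in Model against Ctrl and Mrps11 and Mrpl23 rose (the rises did not pass the test by library size alone), while Mrpl12, Mrps24, Mrps21 and Mrps11 fell in YHY against Model.

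The last comparison, YHY against Ctrl, joins genotype and treatment and shares its mice with the other 2. Of the 77 members, 63 were lower in YHY, where 24.2% of all genes tested were lower, and 0 were higher, where 26.1% were higher (edgeR). At an unadjusted P under 0.05, 66 were lower and 1 higher (4636 and 5123 of all genes), and DESeq2 called 64 lower and 1 higher (25.2% and 27.8% of all genes). The median log2 fold change was -0.75 beside 0.10 over all genes. By library size alone 73 members were lower and 0 higher, with a median of -1.16 beside -0.33, and by the nuclear total alone 33 were lower and 5 higher, with a median of -0.28 beside 0.57. Of all genes 34.3% were lower and 13.6% higher by library size, and 12.3% and 42.4% by the nuclear total. Of all genes called, 48.1% were lower with TMM, 71.7% by library size and 22.5% by the nuclear total, and of members called 100%, 100% and 86.8%. Without YHY 2, YHY 3 or YHY 4, 1 member was higher, beside 23.6%, 24.1% and 25.3% of all genes. Mrpl50 had the largest fall, from 83.0 ± 7.37 CPM in Ctrl to 22.2 ± 2.27 CPM in YHY (SD, n = 4 mice; log2 fold change -1.90, SE 0.21, adjusted P = 3.44e-06).

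The RNA of the mitoribosome moved the other way. mt-Rnr1, the RNA of the small subunit, stood at 2003, 2346, 2035 and 1615 CPM in the Ctrl mice, 2551, 6388, 6549 and 6478 CPM in the Model mice and 3865, 6127, 5879.8 and 6879.9 CPM in the YHY mice. mt-Rnr2, the RNA of the large subunit, stood at 3147, 3459, 3664 and 2683 CPM in the Ctrl mice, 3718, 9094, 9273 and 9204 CPM in the Model mice and 7116, 13054, 8750.3 and 11200.0 CPM in the YHY mice. In both, Model 1 stood far below the other 3 Model mice. With TMM it stood above the Ctrl mice, but for mt-Rnr2 only just, and without TMM factors it lay at 3881 CPM, below Ctrl 1 (3941) and Ctrl 3 (4504). In Model against Ctrl both rose (mt-Rnr1 log2 fold change 1.46, SE 0.29, adjusted P = 0.000948, and mt-Rnr2 1.27, SE 0.29, adjusted P = 0.00268), and without Model 1 the values were 1.64 and 1.45. By library size alone they were 1.00 (adjusted P = 0.00412) and 0.81 (0.0116). Between YHY and Model neither passed the test (mt-Rnr1 0.05, SE 0.28, adjusted P = 0.936, and mt-Rnr2 0.36, SE 0.28, adjusted P = 0.440). Of 37 transcripts of the mitochondrial genome, 16 were tested and 16 rose in Model, where 19.6% of all genes did, with a median of 1.87 that was 1.42 by library size alone. Under YHY, edgeR called 0 of the 16, with 2 higher and 1 lower at an unadjusted P under 0.05, and DESeq2 called 2 higher, while edgeR called 1 higher by library size alone. Of all genes 5.63% were higher and 7.62% lower. The libraries were made from poly(A) RNA, and how this captured ribosomal RNA was not tested.

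Other genes that build or serve the mitoribosome were read from lists of known genes. For reading these lists, 31.8% of all genes were higher in Model and 9.24% lower by the nuclear total alone, with a median of 0.36. With scaling by library size alone 8.87% were higher and 32.5% lower. In YHY against Model the median of all genes by the nuclear total was 0.16. Of 5 further mitoribosome proteins without an Mrpl or Mrps name, 1 was lower in Model than in Ctrl (20%, beside 18.5% of all genes), against 3 by library size alone and 1 lower and 2 higher by the nuclear total alone. Their median of -0.08 turned to 0.25 by the nuclear total alone and to 0.03 by upper-quartile scaling. The lower one was Chchd1, a small subunit protein, at 29.3 ± 1.37 CPM in Ctrl and 15.2 ± 2.03 CPM in Model (SD, n = 4 mice; log2 fold change -0.94, SE 0.14, adjusted P = 9.59e-05), and it was lower again in YHY (-0.46, SE 0.14, adjusted P = 0.0372). This second call was lost by library size alone (-0.47, adjusted P = 0.130) and by the nuclear total alone (-0.32, 0.159). Of 27 assembly factors, 4 were higher and 9 lower in Model (14.8% and 33.3%, beside 19.6% and 18.5% of all genes), with a median of -0.24 that turned to 0.08 by the nuclear total alone. The counts moved with scaling, to 8 higher and 2 lower by the nuclear total alone and 14 lower by library size alone. Rbfa, which helps the small subunit RNA to mature, fell (-1.34, SE 0.29), as did the GTPase Noa1 (-0.92, SE 0.20), while the RNA methyltransferase Mrm1 (0.72, SE 0.20) and Mettl17 (0.64, SE 0.21) rose, although neither rise passed by library size alone. Under YHY 3 assembly factors were higher than in Model and 2 lower (11.1% and 7.41%, beside 5.63% and 7.62% of all genes), with a median of -0.08 over the list that turned to 0.06 by the nuclear total alone. The largest rise was that of Gtpbp6 (1.16, SE 0.29), and the lower ones were Trub2 (-0.72, SE 0.16) and Gtpbp10 (-0.57, SE 0.14). Gtpbp10 did not pass by library size alone (-0.57, adjusted P = 0.0821) or by the nuclear total alone (-0.42, 0.0616).

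Of 14 tested translation factors, 8 were lower and 2 higher in Model (57.1% and 14.3%, beside 18.5% and 19.6% of all genes), against 4 and 3 by the nuclear total alone and 9 and 1 by library size alone. The median of -0.48 was -0.15 by the nuclear total, beside 0.36 over all genes. Tufm, the elongation factor that carries aminoacyl-tRNA to the mitoribosome, stood at 133, 151, 132 and 142 CPM in Ctrl and at 49.0, 37.5, 34.3 and 31.2 CPM in Model. The groups were far apart in every mouse (log2 fold change -1.88, SE 0.17, adjusted P = 3.37e-06). Mtrfr, a release factor for stalled ribosomes, fell as well (-1.45, SE 0.29), whereas Guf1, a GTPase of elongation, rose (1.29, SE 0.21), as did the initiation factor Mtif2 (0.45, SE 0.14, and 0.00 by library size alone). Under YHY, edgeR called 0 of the 14, with 1 higher and 3 lower at an unadjusted P under 0.05 and 1 lower by DESeq2, and 1 was higher by the nuclear total alone. Of 21 genes that charge mitochondrial tRNAs, 8 were lower and 3 higher in Model (38.1% and 14.3%, beside 18.5% and 19.6% of all genes), against 4 and 6 by the nuclear total alone and 11 and 1 by library size alone. The median of -0.17 turned to 0.13 by the nuclear total, beside 0.36 over all genes. Yars2 (-1.43, SE 0.22) and Iars2 (-1.29, SE 0.17), the tyrosine and isoleucine enzymes, fell most. Under YHY 3 were lower, among them Fars2 for phenylalanine (-0.57, SE 0.13), and 1 was higher (14.3% and 4.76%, beside 7.62% and 5.63% of all genes), with a median of -0.09 that turned to 0.03 by the nuclear total alone. There 1 was lower and 2 higher, and by library size alone edgeR called 0, beside 4 lower and 2 higher at an unadjusted P under 0.05 with TMM and 3 and 2 by DESeq2.

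The cytosolic ribosome and the respiratory chain give 2 reference lists. Over all genes, 31.8% were higher in Model and 9.24% lower by the nuclear total alone, with a median of 0.36. With scaling by library size alone 8.87% were higher and 32.5% lower. In YHY against Model 8.65% were higher and 4.77% lower by the nuclear total, and 2.82% and 3.94% by library size. Of 85 tested cytosolic ribosomal protein genes, 18 were lower and 9 higher in Model (21.2% and 10.6%, beside 18.5% and 19.6% of all genes), with a median of -0.12 that turned to 0.20 by the nuclear total alone. These counts moved with scaling as well, to 5 lower and 20 higher by the nuclear total alone and 39 lower and 2 higher by library size alone. Between YHY and Model 19 were lower (22.4%, beside 7.62% of all genes) and 0 higher by edgeR, with 42 lower and 1 higher at an unadjusted P under 0.05, 29 lower and 1 higher by DESeq2, and a median of -0.39. By the nuclear total alone 9 were lower and 1 higher, and by library size alone 5 were lower. The members thus stood at -0.40 and -0.40 in the 2 comparisons and the cytosolic genes at -0.12 and -0.39, a difference that was not tested. Rpl4 fell in Model (-1.55, SE 0.16), Rps18 rose (1.18, SE 0.18) and Rps19 fell in YHY against Model (-0.97, SE 0.16), but many genes of this list have near-identical copies, so their values are uncertain. Of 85 tested respiratory chain genes of the nucleus, 29 were lower and 8 higher in Model (34.1% and 9.41%, beside 18.5% and 19.6% of all genes), with a median of -0.29 that turned to 0.04 by the nuclear total alone. Scaling moved these counts too, to 20 lower and 25 higher by the nuclear total alone and 48 lower and 2 higher by library size alone. Ndufa4 (-1.93, SE 0.25) and Cox5a (-1.86, SE 0.21) fell most, while Cox6a2 (2.38, SE 0.42) and Cox6b2 (1.80, SE 0.31) rose most, and Cox6a2 fell in YHY against Model (-2.74, SE 0.43). Between YHY and Model 17 were lower (20.0%, beside 7.62% of all genes) and 0 higher by edgeR, with 47 lower and 0 higher at an unadjusted P under 0.05, 27 lower and 0 higher by DESeq2, and a median of -0.42. By the nuclear total alone 10 were lower and by library size alone 3.

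**Figure D5:**
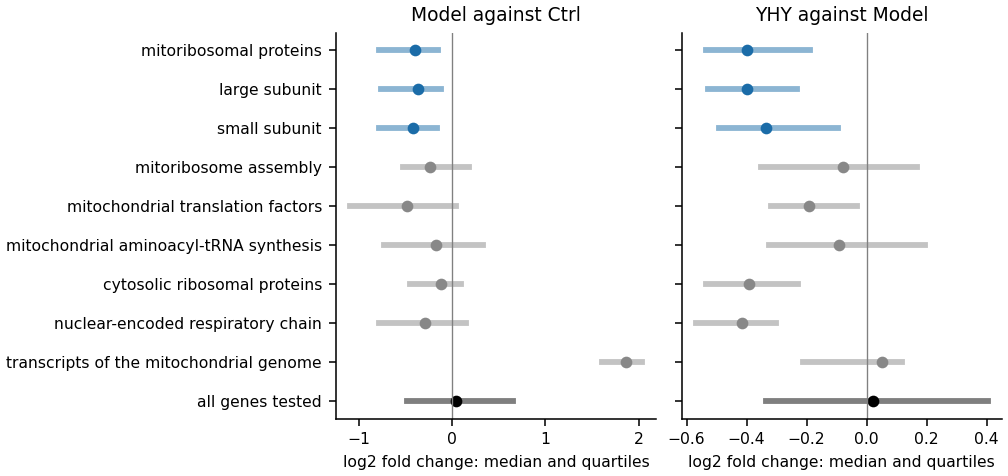
Median log2 fold change (dots) with quartiles (bars) of the members, of their subunits and of related gene lists for Model against Ctrl and for YHY against Model, beside all genes tested, with TMM scaling. In Model against Ctrl the members' median was -0.40 and that of the mitochondrial transcripts 1.87, and by the nuclear total alone the medians of the other mitoribosome proteins and of the assembly, tRNA charging, cytosolic ribosome and respiratory chain lists turned above 0, like that of the large subunit proteins added in mitochondria. In YHY against Model those of assembly and tRNA charging did.

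Across the 77 members, which are not independent of each other and share the same libraries, the change in Model had a Pearson's r of 0.251 with level per length, 0.044 with gene length and 0.38 with the mean count of the gene, each on a log2 scale.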

How the data were processed

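The authors deposited a table of read counts for 57490 genes in the kidneys of 12 mice, made per the submitters' processing notes with Trimmomatic 0.39, FastQC 0.11.9, HISAT2 2.2.1, SAMtools 1.12 and featureCounts 2.0.1, on GRCm39. The annotation and the strand setting of the counting are not given in the sources used here. The deposited comparison tables hold the authors' fold changes and p-values, for which the notes name DESeq2 1.34.0 in R 4.1.2, and 12 columns of values per mouse. No value of these columns was used in a fit or is printed, and they bear on the results only through the alternative with 9 mice, which rests on the authors' group means. From the counts, all 12 mice in 3 groups of 4 were fitted together with edgeR 4.0.16 in R 4.3.3 (TMM scaling, filterByExpr, quasi-likelihood test, two-sided). The filter left 17431 genes, among them 77 of the 78 members, with Benjamini-Hochberg adjustment over these genes in each of 3 comparisons, with a limit of 0.05. With 24415658 to 33276634 counts per mouse, the share of the members in 1 mouse has a 95% Wilson interval at most 0.00483 percentage points wide. The share of mitochondrial transcripts was compared by an exact permutation test over mice.

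Members were named in the text as the 8 largest falls and rises in Model against Ctrl and the 5 largest in YHY against Model among those called without overlap, the 3 highest and 3 lowest levels per length, those not tested, and 8 members with known roles of their own (Mrps18a, Mrps18b, Mrps18c, Mrpl12, Mrpl45, Mrpl58, Mrps12 and Mrps36). Other lists gave up to 2 genes per direction and comparison, and the remaining members appear in complete listings by role. The members and the lists were chosen with earlier results of these data known. Alternatives were DESeq2 1.42.0, scaling by upper quartiles or by library size alone, mitochondrial transcripts left out before TMM, no filter, at least 10 counts in every mouse, a fit of only the groups compared, only the 9 mice that an earlier analysis found behind the authors' group means, leaving out each mouse in turn, a block for the replicate number, and the study's limits of a fold over 1.2 and an unadjusted P under 0.05. Scaling by the nuclear total alone, and the ratio of the subunits without Mrps6, were chosen after the data had been seen. The test was also run on simulated data, and the first limit set for that run, on how many changed genes it should call, was missed and then replaced by a limit on how closely the changes were recovered. The R packages limma (version 3.58.1) and data.table (version 1.17.8), Python 3.11.15, pandas 2.3.3, numpy 2.4.6 and matplotlib 3.10.9 were also used.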

Additional observations from a re-analysis of the deposited data

Results flagged for a closer look

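In each group of 4 mice, a mouse was singled out where its gap to the nearest mouse, over the range of the group, passed Dixon's limit for 4 values. By chance this happens in about 1 of 20 groups, and 8 of 93 combinations of a named result and a group passed it. Over all members, 11 of 231 combinations of a member and a group did (4.76%). For Mrpl50, Ctrl 4 stood at 71.9 CPM with the other Ctrl mice between 86.0 and 87.3. For Mrps12, Ctrl 4 stood at 26.6 CPM with the others between 20.3 and 21.3. For Mrpl58, Model 1 stood at 62.5 CPM with the other Model mice between 48.2 and 50.4. The share of mitochondrial transcripts was 22.7% in Ctrl 2 with the other Ctrl mice between 18.4 and 18.6%, and 64.6% in YHY 2 with the other YHY mice between 53.8 and 54.6%. Ctrl 2 also had the fewest counts of its group, 29632718 with the others between 32677732 and 33276634. For mt-Rnr1, Model 1 stood at 2551 CPM with the other Model mice between 6388 and 6549, and for mt-Rnr2 at 3718 CPM with the others between 9094 and 9273. Why these mice stood apart was not tested.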

How the results depend on the processing

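Of the values of single genes and the counts of all genes under the alternatives, 698 held, 43 were weaker, 8 stronger, 18 moved and 9 reversed. A single gene held if it kept its direction and its side of the threshold. A count held if it stayed within a set factor of the main count, or if both were 0. Of the members' counts and medians, 177 held and 27 moved. A median held if it kept its sign and moved by less than 0.152, the SD between mice of the members' median. In Model against Ctrl, 2 members higher became 0 by library size alone, 11 by the nuclear total alone and 2 to 5 with a mouse left out. The 35 lower became 58 by library size alone, 18 by the nuclear total alone and 28 to 45 with a mouse left out, and the median of -0.40 became -0.81, -0.0721 and -0.53 to -0.32. In YHY against Model, 19 members lower became 40 at a fold over 1.2 and an unadjusted P under 0.05, 5 by library size alone, 9 by the nuclear total alone, 8 in a fit of only the groups compared and 8 to 30 with a mouse left out. In YHY against Ctrl, 0 members higher became 1 at a fold over 1.2 and an unadjusted P under 0.05, 1 with DESeq2, 2 with upper-quartile scaling, 5 by the nuclear total alone, 1 without a filter, 2 with at least 10 counts in every mouse and 0 to 1 with a mouse left out. The 63 lower became 33 by the nuclear total alone, and the median of -0.75 became -1.16 by library size alone and -0.28 by the nuclear total alone. Reversals in Model against Ctrl were those of Mrpl45 (0.0118 with upper-quartile scaling and 0.24 by the nuclear total), Mrpl12 (0.16 by the nuclear total), Mrps18c (0.0054 by the nuclear total) and Mrpl58 (-0.35 by library size alone, -0.02 without Ctrl 1, -0.06 without Ctrl 4 and -0.0925 without Model 1, over a range of -0.0925 to 0.15 with a mouse left out). In YHY against Model, Mrps18b was at -0.14 without YHY 2 (-0.14 to 0.39 with a mouse left out). The cause of these moves was not tested. With the replicate number as a block, 2 members rose and 33 fell between Ctrl and Model, 0 rose and 14 fell between Model and YHY, and 0 rose and 62 fell between Ctrl and YHY. Mice with the same number correlated at -0.226 to 0.193 after removal of group means, over 0.1 in 3 of 12 pairs. With 4 mice per group, these values cannot tell whether mice with the same number shared more than the number. Replicate libraries of a group differed by a chi-square of 19.2 to 156 per degree of freedom. With 4 mice per group, small changes could not be told from the spread between mice, and the size of any nuclear change was tied to the scaling. The mRNA of whole tissue says nothing of protein or of ribosome number.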
